A study of Mus musculus with 12 samples.

Results

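The diet by pregnancy interaction asks, gene by gene, whether the change from the nonpregnant to the postpartum heart differed between a control diet and a Western diet. It was computed as the log2 ratio of postpartum to nonpregnant hearts on the Western diet minus the same log2 ratio on the control diet. All 12 libraries of the series entered it, 3 in each of the 4 combinations of diet and pregnancy state. Of the 49315 genes in the count files, 15476 passed a filter on low counts and were tested, and these are the genes described here.

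Hearts came from wild-type female C57BL/6J mice aged 27 to 29 weeks, and no group carried an allele or a transgene. Females on the control diet received 10% of dietary energy as fat, and those on the Western diet received 45% as fat and 17% as sucrose. Feeding started 15 weeks before breeding. Postpartum hearts were collected on day 1 after delivery, and nonpregnant hearts came from females of matched age that were not bred. The 4 groups are called control diet nonpregnant, control diet postpartum, Western diet nonpregnant and Western diet postpartum. The animal numbers in the sample names are lower in all postpartum than in all nonpregnant hearts, so the order of the animals and pregnancy cannot be told apart. Each library carries its own animal number, so the 3 libraries of a group are read as 3 animals. A p-value here reflects the spread between these libraries, in which animal and technical differences cannot be told apart.

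In the maternal heart, blood volume and stroke volume rise during pregnancy, and the muscle wall grows in a way that resembles the growth caused by endurance exercise and reverses after birth. Cardiomyocytes, which make up most of the heart's mass, burn mainly fatty acids under control of the nuclear receptor PPAR alpha, while fibroblasts between them secrete collagens that are folded and modified in the endoplasmic reticulum. A diet rich in fat and sugar raises the supply of fatty acids to the heart and is a common model of metabolic syndrome. A negative interaction means that the postpartum to nonpregnant ratio was lower on the Western diet than on the control diet, and a positive one that it was higher.

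Library totals were 22754591 to 29492416 counts. Levels are in CPM, counts scaled to a common library size, and a gene with a count of 0 could lie at up to 0.102 to 0.132 CPM (3 counts of the total, for counting error only). The heart identity of the libraries was visible in the cardiomyocyte markers, whose 14 genes summed to 95650.0 to 107000.0 CPM in control diet nonpregnant, 90440.0 to 100900.0 CPM in control diet postpartum, 90820.0 to 94870.0 CPM in Western diet nonpregnant and 93480.0 to 95820.0 CPM in Western diet postpartum hearts. Fat tissue transcripts were far higher in 1 library, control diet postpartum replicate 3, than in the others. It had 73.0 CPM of Ucp1, the uncoupling protein of brown fat, where no other library exceeded 0.544 CPM, and 19.6 CPM of Adipoq, the fat hormone adiponectin, where none of the others exceeded 0.542 CPM. Control diet nonpregnant replicate 1 stood apart from its group, with a chi-square of the counts per degree of freedom of 16.7 and 16.3 against the other two, which differed from each other by 4.02. Western diet postpartum replicate 2 likewise differed from its partners by 14.1 and 12.9, while those differed by 7.03. Western diet nonpregnant replicate 1 differed by 9.11 and 9.82 from partners that differed by 5.42. It is not counted among the 3 libraries that stand apart below.

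No gene passed the interaction test. With edgeR's quasi-likelihood test and Benjamini-Hochberg adjustment over all 15476 genes, 0 genes (0%) had an adjusted p under 0.05, and the smallest adjusted p was 0.0987. At an unadjusted p under 0.05 there were 1390 genes (8.98%), where an even spread of p-values would place 773.8. Of these, 792 (5.12% of all genes tested) were positive and 598 (3.86%) negative. The median interaction over all genes was 0.0011, and its median standard error was 0.166, against 0.117 for the pregnancy effect on the control diet and 0.118 on the Western diet. Limma-voom called 0 genes and DESeq2 called 30, of which 26 were positive and 4 negative. The edgeR count moved when single libraries were left out. Without Western diet postpartum replicate 2, edgeR called 53 genes, 43 positive and 10 negative. Dropping replicate 1 of that group gave 3 genes, dropping control diet postpartum replicate 3 gave 1, and dropping any one of the other 9 libraries gave 0. Because the test was not passed with all libraries, the genes below are given as values and are not called changed between the diets.

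**Figure D1:**
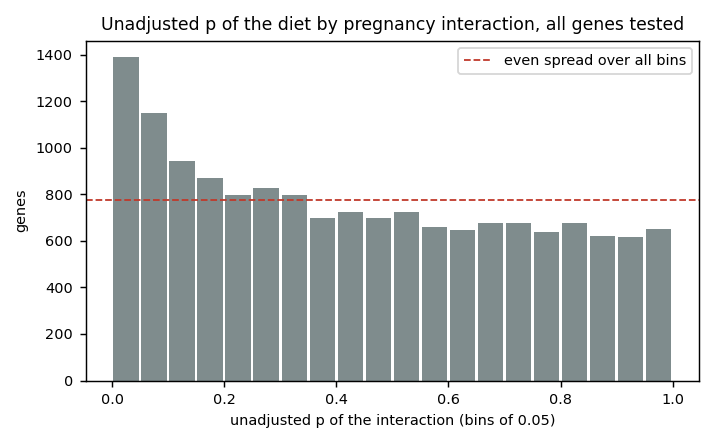
Number of genes (vertical axis) in each bin of 0.05 of the unadjusted interaction p (horizontal axis) over the 15476 genes tested. The lowest bin holds 1390 genes, above the 773.8 of an even spread (dashed line).

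The smallest p belonged to a gene without a symbol, ENSMUSG00000091089, at chr14:50895942-50897456 (GRCm38, minus strand). It lies beside Klhl33, a kelch-like gene on the same strand at chr14:50891389-50893255, and the split of reads between the 2 is uncertain. ENSMUSG00000091089 was at 10.6, 11.8 and 11.7 CPM in control diet nonpregnant and 7.89, 9.38 and 7.11 CPM in control diet postpartum hearts. On the Western diet the order was turned around, with 9.14, 6.85 and 7.63 CPM in nonpregnant and 12.1, 15.4 and 16.3 CPM in postpartum hearts. On each diet the 2 groups did not overlap, and they differed in opposite directions. Its interaction was 1.38 on the log2 scale (95% confidence interval 0.96 to 1.80, edgeR adjusted p = 0.0987). Klhl33 showed the same crossing, with an interaction of 1.16 (edgeR adjusted p = 0.357). Klhl33 levels were 10.1, 11.6 and 10.8 and then 7.38, 9.1 and 7.88 CPM on the control diet, and 8.62, 8.4 and 7.77 and then 9.8, 18.2 and 13.7 CPM on the Western diet, with the nonpregnant libraries first.

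Among genes with a negative interaction, the smallest p belonged to Serpinh1 (ENSMUSG00000070436, chr7:99345376-99353239, minus strand), which encodes HSP47, the endoplasmic reticulum chaperone that binds newly made collagen. Its level was 192, 183 and 185 CPM in control diet nonpregnant and 249, 262 and 269 CPM in control diet postpartum hearts. It was 222, 207 and 211 CPM in Western diet nonpregnant and 221, 198 and 187 CPM in Western diet postpartum hearts. Every control diet postpartum library was therefore above every other library, while the Western diet groups overlapped. Serpinh1 rose with pregnancy on the control diet (log2 fold change 0.48, edgeR adjusted p = 0.0199), with -0.080 on the Western diet (adjusted p = 0.608). The difference of the 2, the interaction, was -0.56 (95% confidence interval -0.76 to -0.36, edgeR adjusted p = 0.234, and 9.12e-06 to 0.642 over 21 alternatives). Serpinh1 passed in 5 of the 21, among them DESeq2 and the edgeR fit with no filter on low counts.

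Other genes of collagen structure and modification were among the 12 negative genes with the smallest p. Col16a1 (chr4:130047840-130099283, plus strand), which encodes a collagen that sits on the surface of larger fibrils, was at 8.24, 7.73 and 6.39 CPM and then 11.5, 10.1 and 11.9 CPM on the control diet, nonpregnant libraries first. On the Western diet it was at 9.14, 11.4 and 10.2 and then 8.61, 9.19 and 8.0 CPM, and its interaction was -0.83 (95% confidence interval -1.19 to -0.48, edgeR adjusted p = 0.35). Crtap, a subunit of the enzyme complex that hydroxylates prolines of collagen chains, had an interaction of -0.42 (-0.63 to -0.20), and its levels crossed without overlap. Its control diet libraries went from 24.2, 22.6 and 26.6 CPM in nonpregnant to 29.2, 28.1 and 30.2 CPM in postpartum hearts, and its Western diet libraries from 28.9, 26.1 and 26.2 to 24.1, 24.8 and 23.7 CPM.

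Another group of negative genes serves chromosomes and cell division. H2afz, a histone variant, had an interaction of -0.40 (-0.60 to -0.21), and Smc4, a condensin subunit that compacts chromosomes, one of -0.51 (-0.76 to -0.25). Smc4 was at 17.6, 15.4 and 15 CPM and then 19.9, 19.8 and 19.6 CPM on the control diet, and at 19, 21.2 and 19.1 and then 15.9, 18.8 and 16.7 CPM on the Western diet, so that it crossed without overlap. Cks2, a small partner of the cell cycle kinases, had the largest negative value of the 12, -2.10 (-3.20 to -1.01), at a low level. It was at 0.25, 0.252 and 0.408 CPM in control diet nonpregnant hearts, against 1.53, 1.05 and 0.746 CPM in control diet postpartum hearts. The Western diet libraries, at 1.12, 0.757 and 1.16 CPM in nonpregnant and 1.14, 0.569 and 0.856 CPM in postpartum hearts, were all above the control diet nonpregnant ones.

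In another negative gene, Smtn, the Western diet postpartum group was the one that stood apart. Smtn (ENSMUSG00000020439, chr11:3517523-3540612, minus strand), which encodes smoothelin of contractile smooth muscle, was at 137, 164 and 146 CPM in Western diet postpartum hearts. The other 9 libraries ran from 190.4 to 223 CPM, with no overlap. Smtn fell with pregnancy on the Western diet (log2 fold change -0.49, edgeR adjusted p = 0.0249), with -0.024 on the control diet (adjusted p = 0.926) and an interaction of -0.46 (-0.69 to -0.24, adjusted p = 0.357). Ckb, the brain type creatine kinase, was at 39.8, 37 and 36.1 CPM in Western diet postpartum hearts against 43.1, 46.4 and 48.9 CPM in Western diet nonpregnant hearts. Its interaction was -0.53 (-0.79 to -0.26), and its pregnancy estimates on the 2 diets had opposite signs. Klhl30, a kelch-like gene, and Wdfy4, needed by dendritic cells to present antigens taken up from other cells, had interactions of -0.59 and -0.84. The remaining 2 of the 12 were Tmc6, a transmembrane channel-like gene, at -0.46, and Smg9, a subunit of the nonsense-mediated decay machinery, at -0.49. Both crossed without overlap. Over these 12 genes, 4 crossed without overlap, where 48 of all genes tested did so in this direction (0.31%). These counts describe genes selected by their p, so they carry no separate evidence.

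**Figure D2:**
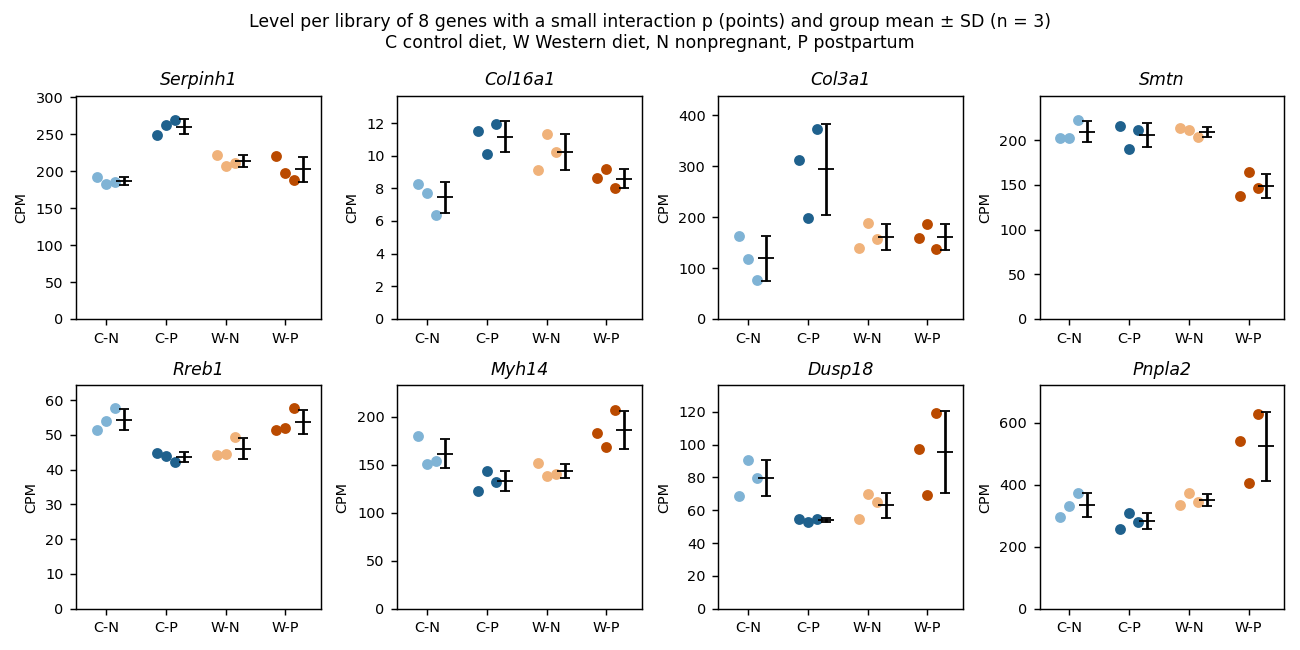
CPM (vertical axes, from 0) in each library (points) of 8 genes in the 4 groups (C control diet, W Western diet, N nonpregnant, P postpartum), with the mean and SD beside them (n = 3). Serpinh1, Col16a1, Col3a1 and Smtn had negative interactions and Rreb1, Myh14, Dusp18 and Pnpla2 positive ones.

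Among positive genes with a symbol, Rreb1 (ENSMUSG00000039087, chr13:37778400-37952002, plus strand) had the smallest p. It encodes a zinc finger transcription factor that binds Ras-responsive elements. Rreb1 was at 51.5, 54.1 and 57.6 CPM in control diet nonpregnant and 44.8, 43.9 and 42.2 CPM in control diet postpartum hearts. It was at 44.1, 44.6 and 49.4 CPM in Western diet nonpregnant and 51.3, 52.1 and 57.6 CPM in Western diet postpartum hearts. The groups crossed without overlap, lower postpartum on the control diet and higher postpartum on the Western diet. The interaction was 0.54 (0.33 to 0.75, edgeR adjusted p = 0.35, and 0.00129 to 0.724 over 21 alternatives). Rreb1 passed in 4 of the 21, among them DESeq2 and the edgeR fit with no filter on low counts.

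Myh14, a nonmuscle myosin heavy chain, had the same shape. Its levels were 179, 151 and 154 CPM and then 122, 144 and 132 CPM on the control diet, and 151, 138 and 140.1 and then 183, 168 and 207 CPM on the Western diet. Its interaction was 0.66 (0.39 to 0.93, edgeR adjusted p = 0.35). Dusp18, a dual specificity phosphatase, was at 68.7, 91 and 79.5 CPM and then 54.8, 52.7 and 55 CPM on the control diet. On the Western diet it was at 54.4, 69.7 and 65 and then 97.6, 69.5 and 119 CPM, where replicate 2 of the postpartum group lay within the nonpregnant range. Its interaction was 1.15 (0.68 to 1.63), and without that library it was 1.33 (edgeR adjusted p = 0.014, and 9.91e-21 to 0.724 over 21 alternatives). The lowest of these came from the edgeR fit with no filter.

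The other positive genes with the smallest p include several kinases. Cdk18, a cyclin-dependent kinase of the PCTAIRE family, had an interaction of 0.56 (0.33 to 0.79). Mknk2, a kinase that phosphorylates the cap-binding translation factor eIF4E, had one of 0.51 (0.29 to 0.73), and Sik3, a salt-inducible kinase, one of 0.55 (0.29 to 0.81). Mknk2 was at 277, 268 and 259.6 CPM and then 246, 243 and 217 CPM on the control diet and at 250.1, 260.0 and 265 and then 329, 289.5 and 350.4 CPM on the Western diet, crossing without overlap. Fosl2, a subunit of the AP-1 transcription factor, rose with pregnancy on the Western diet (log2 fold change 0.60, edgeR adjusted p = 0.0271), with -0.084 on the control diet and an interaction of 0.68 (0.38 to 0.98, adjusted p = 0.357). Structural genes were also present. Dmd, which encodes dystrophin, had an interaction of 0.56, Map7, a microtubule-associated protein, 0.56, and Synpo, an actin-binding protein, 0.55. Ism1, a secreted protein, had the largest value of the 12, 1.56 (0.89 to 2.23), at 0.643 to 1.76 CPM. Of the 12, 7 crossed without overlap, as did 73 of all genes tested in this direction (0.472%). In all 12 the pregnancy estimates of the 2 diets had opposite signs, as in 11 of the 12 negative genes. The adjusted p of these 24 genes ran from 0.234 to 0.357 with all libraries. DESeq2 called 14 of them, and edgeR called 7 of them without Western diet postpartum replicate 2.

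Promoter windows from RefSeq (GRCm38.p6, from 250 bases before to 50 bases after each start) were read for 19 of the 24 genes, 24 windows in all, and searched on both strands. The E-box CACGTG, the site bound by the clock factors CLOCK and BMAL1 and by MYC, was in 4 of the 24 windows, those of Cdk18, Rreb1, Sik3 and Tmc6, and in 7.15% of all 32851 windows. The antioxidant response element TGACNNNGC was in windows of Cdk18, Rreb1 and Wdfy4 (12.4% of all windows), and the AP-1 site TGANTCA in one of Dmd (7.81%). The STAT site TTCNNNGAA (8.3%), the cyclic AMP response element TGACGTCA (1.79%), the ATF4 site TGATGNAAT (0.965%) and the D-box TTATGTAA (0.938%) were in 0 of the 24 windows. The PPAR response element (0.0396%), the glucocorticoid response element (0.475%) and the NF-kappa B site (0.411%), searched as single patterns, were likewise in 0. The 100 bases before the start are shown for the crossing kinase gene Cdk18 and the crossing transcription factor gene Rreb1, 5′ to 3′ on the gene's strand, because both hold an E-box close to the start. Capitals mark matches, the E-box in both and the antioxidant response element, read on the opposite strand, in Cdk18. The Cdk18 stretch is chr1:132139686-132139785 (minus strand) and the Rreb1 stretch chr13:37825938-37826037 (plus strand). Rreb1 has other starts in RefSeq, and their windows held no E-box. A match describes the letters in the window and is not a measured binding site.
Cdk18: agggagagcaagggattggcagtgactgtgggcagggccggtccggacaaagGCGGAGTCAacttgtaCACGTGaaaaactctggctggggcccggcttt
Rreb1: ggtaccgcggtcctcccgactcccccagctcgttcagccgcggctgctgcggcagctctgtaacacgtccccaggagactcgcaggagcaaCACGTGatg

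Extracellular matrix genes had mostly negative interactions. Of 54 tested members of the extracellular matrix and fibrosis list, 44 were negative, and 18 (33.3%) were negative at an unadjusted p under 0.05, against 3.86% of all genes, with 1 positive. The median interaction of the list was -0.26, against 0.0011 over all genes. The median pregnancy effect of its members was 0.42 on the control diet and 0.095 on the Western diet (log2). Leaving out 1 library at a time placed the negative count between 16 and 25. As a score per library, the median over members of the log2 level relative to the control diet nonpregnant mean was 0.17, -0.0039 and -0.18 in control diet nonpregnant hearts and 0.58, 0.31 and 0.48 in control diet postpartum hearts. It was 0.084, 0.11 and 0.17 in Western diet nonpregnant and 0.28, 0.22 and 0.18 in Western diet postpartum hearts. The postpartum libraries were above the nonpregnant ones on each diet without overlap, and the gap was wider on the control diet.

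Fibrillar collagens showed this in single genes. Col3a1 (chr1:45311538-45349706, plus strand), the main collagen of compliant tissue, was at 163, 118 and 76.1 CPM and then 313, 197 and 372 CPM on the control diet. On the Western diet it was at 139, 188 and 156 and then 159, 187 and 137 CPM, and these ranges overlapped. Its interaction was -1.30 (-2.05 to -0.55, edgeR adjusted p = 0.376). Col1a1, the chain of the stiffer type I collagen, rose with pregnancy on the control diet (log2 fold change 0.86, edgeR adjusted p = 0.0409) and had 0.11 on the Western diet (adjusted p = 0.798). Its interaction was -0.75 (-1.22 to -0.29, adjusted p = 0.394). Col6a2 and Col6a3, chains of the microfibrillar collagen VI chosen here after their values were seen, had interactions of -0.67 and -0.72. Sparc, a collagen-binding matrix protein, had -0.42 (-0.73 to -0.10), Lum, the fibril-spacing proteoglycan lumican, -0.65 (-1.06 to -0.24), and Postn, periostin of activated fibroblasts, -0.51 (-1.04 to 0.011).

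Not every matrix gene followed. Thbs1, the matrix glycoprotein thrombospondin-1, was at 5.6, 4.91 and 4.76 CPM and then 23.4, 10.4 and 9.96 CPM on the control diet, and at 4.21, 3.25 and 4.57 and then 17.3, 15.7 and 11.2 CPM on the Western diet. It was higher postpartum without overlap on both diets, and its interaction was 0.36 with an interval of -0.53 to 1.25 (edgeR adjusted p = 0.828). Leaving out 1 library placed the Thbs1 value between 0.14 and 0.88, lowest without control diet postpartum replicate 3 and highest without replicate 1 of that group, and it was 0.018 without all 3 libraries that stand apart. Tnc, tenascin-C of matrix under remodelling, rose with pregnancy on the control diet (log2 fold change 1.5, edgeR adjusted p = 0.0436) and on the Western diet (1.67, adjusted p = 0.0271). Its interaction was 0.17 (-0.68 to 1.02). The intervals of both genes include differences of more than 0.5 in either direction, so an equal response was not shown.

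The 17 fibroblast markers, which share collagens with the matrix list, had a median interaction of -0.24, with 15 negative and 6 (35.3%) negative at an unadjusted p under 0.05, against 3.86% of all genes. Their summed level was 2230.0 to 2723 CPM in control diet nonpregnant and 2832 to 2999 CPM in control diet postpartum hearts, and 2664 to 2961 and 2659 to 3130.0 CPM on the Western diet. In whole hearts, fewer cells of a type and less RNA per cell cannot be told apart, and the part of fibroblast content in the matrix values was not tested.

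**Figure D3:**
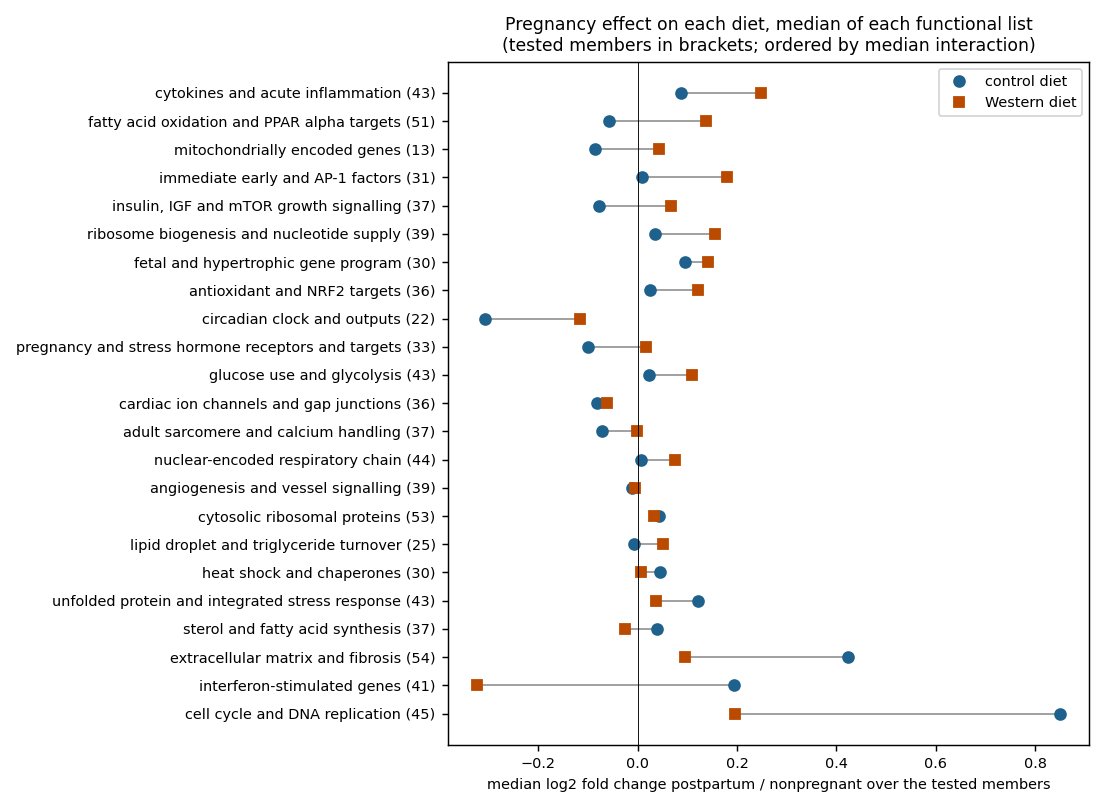
Median log2 fold change of postpartum over nonpregnant hearts (horizontal axis) of the tested members of 23 functional lists, on the control diet (circles) and the Western diet (squares). The distance between the symbols is widest for cell cycle genes, 0.85 against 0.20.

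Cell cycle genes had the lowest median interaction of the functional lists. Of 45 tested members of the cell cycle and DNA replication list, 41 were negative, and 9 (20%) were negative at an unadjusted p under 0.05, against 3.86% of all genes. The median interaction was -0.64, and the median pregnancy effect was 0.85 on the control diet and 0.20 on the Western diet. Uhrf1, which keeps DNA methylation through replication, was at 2.46, 2.31 and 1.68 CPM and then 5.0, 3.37 and 4.57 CPM on the control diet. On the Western diet it was at 1.93, 2.57 and 2.43 and then 2.24, 2.27 and 2.01 CPM, and only the control diet postpartum libraries lay above 3 CPM. Its interaction was -1.09 (-1.69 to -0.49, edgeR adjusted p = 0.357). Plk1, a mitotic kinase, had an interaction of -1.69 (-2.77 to -0.60) and Cdca3, a mitotic entry factor, one of -1.36 (-2.24 to -0.48), both at under 2.5 CPM in every library. The list's score was 0.42, -0.14 and -0.33 in control diet nonpregnant hearts, and replicate 1 stood above its partners. Without it, 28 members were negative at an unadjusted p under 0.05. Without Western diet postpartum replicate 2 there were 15, and 6 were left without the third control diet nonpregnant or the first control diet postpartum library. The median ran from -0.88 to -0.41 as 1 library at a time was left out, nearest to 0 without control diet nonpregnant replicate 3.

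Interferon-stimulated genes, induced by antiviral cytokines, were also mostly negative. Of 41 tested members, 39 were negative, and 12 (29.3%) were negative at an unadjusted p under 0.05, against 3.86% of all genes. The median interaction was -0.48, with a median pregnancy effect of 0.19 on the control diet and -0.32 on the Western diet, so the 2 medians had opposite signs. Part of the contrast lay in the nonpregnant hearts, where the median diet effect was 0.50, against -0.025 postpartum. Ifi27l2a was at 14.2, 12.9 and 13.3 CPM and then 22, 24.5 and 28.1 CPM on the control diet and at 17, 18.7 and 17.4 and then 19.1, 23 and 12.8 CPM on the Western diet. It rose with pregnancy on the control diet (log2 fold change 0.89, edgeR adjusted p = 0.037), and its interaction was -0.84 (-1.31 to -0.37, adjusted p = 0.359). Oasl2 and Oas3, of the oligoadenylate synthetase family that senses viral RNA, had interactions of -0.62 (-1.01 to -0.23) and -1.64 (-2.70 to -0.59). The libraries of a group were far apart in this list. Its score was 0.78, 0.38 and 0.36 in Western diet nonpregnant and 0.11, 0.46 and -0.13 in Western diet postpartum hearts, which overlap. Dropping control diet nonpregnant replicate 1 turned the count of 12 into 28, and dropping Western diet postpartum replicate 2 turned it into 26, with a median of -0.73. It became 5 when replicate 1 of the Western diet nonpregnant group was dropped. Dropping either Western diet postpartum replicate 3 or the second control diet nonpregnant library left 6, and dropping the third control diet nonpregnant or the second control diet postpartum library left 7.

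Markers of immune cells are set beside these lists. Of 20 macrophage and monocyte markers, 16 were negative and 5 (25%) were negative at an unadjusted p under 0.05, against 3.86% of all genes. Their median was -0.28, and -0.36 to -0.16 leaving out 1 library, nearest to 0 without control diet nonpregnant replicate 3. Their summed level was 347 to 419.5 CPM and then 456 to 504 CPM on the control diet, nonpregnant first, and 365 to 445 and then 428 to 501 CPM on the Western diet. C1qa and C1qb, chains of the complement starter C1q made by tissue macrophages, rose with pregnancy on the control diet (log2 fold changes 0.52 and 0.48, edgeR adjusted p = 0.0364 and 0.037). On the Western diet they had 0.12 and 0.086, and their interactions were -0.40 (-0.68 to -0.13) and -0.40 (-0.66 to -0.14). Of 11 tested lymphocyte markers, 10 were negative, none at an unadjusted p under 0.05, and their summed level was at most 18.8 CPM in any library. Mcpt4, a mast cell protease, had an interaction of -1.95 (-3.12 to -0.78) at 0.0840 to 1.67 CPM. Of 11 glial and neuronal markers, which are not immune markers, 10 were negative, with a median of -0.54. Of them 3 (27.3%) were negative at an unadjusted p under 0.05, against 3.86% of all genes. Whether cell content took part in the values of the cell cycle and interferon lists was not tested.

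Fatty acid genes went the other way. Of 51 tested members of the fatty acid oxidation and PPAR alpha target list, 47 were positive, against 50.19% of all genes, and 8 (15.7%) were positive at an unadjusted p under 0.05, against 5.12%, with 0 negative. The median interaction was 0.20. The median pregnancy effect was -0.058 on the control diet and 0.14 on the Western diet, and the median diet effect was 0.20 in nonpregnant and 0.42 in postpartum hearts. The list's score was -0.12, 0.0049 and 0.10 and then -0.078, -0.013 and -0.15 on the control diet, and 0.18, 0.21 and 0.19 and then 0.32, 0.25 and 0.43 on the Western diet. The Western diet postpartum libraries were the highest of all 12. The 14 cardiomyocyte markers had a median interaction of 0.12, with 10 positive and 3 (21.4%) positive at an unadjusted p under 0.05, against 5.12% of all genes. Their part in the fatty acid values was not tested. The count of 8 moved with single libraries. It was 22 when control diet nonpregnant replicate 1 was dropped, 18 when Western diet postpartum replicate 2 was, and 14 when either the second control diet postpartum or the first Western diet postpartum library was. The lowest count leaving out 1 library was 6.

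Cat, the peroxide-degrading enzyme catalase of peroxisomes, was at 214, 229 and 236 CPM and then 184, 188 and 187 CPM on the control diet, and at 241, 246 and 258 and then 276, 244 and 341 CPM on the Western diet. Its control diet postpartum libraries were below all other libraries, and its interaction was 0.49 (0.20 to 0.78, edgeR adjusted p = 0.377). Acot1, a cytosolic thioesterase that releases fatty acids from coenzyme A, was at 10.2, 14.8 and 16.6 CPM and then 10.1, 8.56 and 10.1 CPM on the control diet, and at 24.3, 34 and 26.6 and then 43.3, 31 and 70.2 CPM on the Western diet. In Acot1 the Western diet libraries were above the control diet ones in both pregnancy states, and its interaction was 1.29 (0.52 to 2.05). Its mitochondrial neighbour Acot2 had 0.77 (0.22 to 1.33). The 2 genes are near-identical copies, so the split of reads between them is uncertain.

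The genes most used as readouts of PPAR alpha varied widely between Western diet postpartum libraries. Pdk4, the kinase that shuts pyruvate dehydrogenase when fat is burned, was at 284, 162 and 202 CPM and then 353, 169 and 189 CPM on the control diet, and at 376, 529.5 and 586 and then 480.5, 2083 and 1048 CPM on the Western diet. Its interaction of 1.14 had an interval of -0.10 to 2.39. Angptl4, a circulating inhibitor of lipoprotein lipase, had 1.19 (-0.45 to 2.83), and Ucp3, a mitochondrial carrier of muscle, 0.88 (-0.28 to 2.03). In all 3 genes Western diet postpartum replicate 2 was the highest library. Without it the interactions of Pdk4, Angptl4 and Ucp3 were 0.48, 0.62 and 0.048, and without all 3 libraries that stand apart 0.10, -0.13 and -0.076. Cpt1b, which carries fatty acids into mitochondria, had 0.29 (-0.043 to 0.62), and 0.15 to 0.37 leaving out 1 library, lowest without Western diet postpartum replicate 3.

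Genes that handle stored fat and the insulin signal gave further positive values. Pnpla2, the triglyceride lipase ATGL, was at 297, 331 and 375 CPM and then 259, 311 and 280.1 CPM on the control diet, and at 336, 373 and 345 and then 541, 407 and 628 CPM on the Western diet. All Western diet postpartum libraries lay above the other 9, and the interaction was 0.82 (0.42 to 1.21, edgeR adjusted p = 0.357). Gpam, the first enzyme of glycerolipid synthesis, had 0.62 (0.20 to 1.03), and Plin3, a lipid droplet coat protein, 0.41 (0.17 to 0.65). Over the 25 tested members of the lipid droplet list, 12 were positive and 13 negative, with a median of -0.016. At an unadjusted p under 0.05, 4 (16%) were positive and 1 (4%) negative, against 5.12% and 3.86% of all genes. Without control diet postpartum replicate 3, which had far higher fat tissue transcripts, the median of this list was 0.013. Of 37 members of the insulin, IGF and mTOR list, 24 were positive, 9 (24.3%) positive and 3 (8.11%) negative at an unadjusted p under 0.05, against 5.12% and 3.86% of all genes. Eif4ebp1, the translation repressor released by mTOR, rose with pregnancy on the Western diet (log2 fold change 0.50, edgeR adjusted p = 0.0249), with 0.033 on the control diet and an interaction of 0.47 (0.24 to 0.70, adjusted p = 0.357). Its Western diet postpartum libraries, at 81.7, 79.4 and 88.1 CPM, were above the other 9. Deptor, an inhibitor of mTOR, crossed without overlap, from 20.6, 23.3 and 21.2 to 18, 18.4 and 19.8 CPM on the control diet and from 22.9, 23.1 and 24.2 to 27.1, 26.3 and 26.9 CPM on the Western diet, with an interaction of 0.41 (0.20 to 0.61). Irs2, an adaptor of the insulin receptor, had 1.60 (0.73 to 2.48), where control diet nonpregnant replicate 1 was at 32.0 CPM and its partners at 13.3 and 13.2 CPM. Without that library the Irs2 interaction was 1.02 (edgeR adjusted p = 0.132, and 4.1e-24 to 0.724 over 21 alternatives). Of these alternatives, only the edgeR fit with no filter called Irs2.

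Inflammatory and antioxidant genes had positive median interactions. In the cytokine and acute inflammation list, 28 of 43 tested members were positive, 10 (23.3%) of them at an unadjusted p under 0.05, against 5.12% of all genes, with 1 negative. The median interaction was 0.20, and 0.23 to 0.37 leaving out 1 library, highest without control diet nonpregnant replicate 2. The low-count filter was applied again after each omission, so the tested members could differ, and 0.20 lies outside this range. Ccl2, the chemokine that draws monocytes, rose with pregnancy on the Western diet (log2 fold change 1.69, edgeR adjusted p = 0.0311), with 0.52 on the control diet (adjusted p = 0.52) and an interaction of 1.17 (0.23 to 2.11, adjusted p = 0.472). Stat3, the transcription factor activated by interleukin 6, had 0.44 (0.13 to 0.74), and Sele, the endothelial adhesion molecule E-selectin, 1.13 (0.30 to 1.95). Sele was at 0.858, 0.833 and 0.844 CPM in Western diet nonpregnant hearts, below every other library. Vwf, the clotting factor stored in endothelial cells, had 0.89 (0.42 to 1.36), while the 18 endothelial markers together had a median of 0.018. Of these markers 10 were positive, and 1 (5.56%) was positive at an unadjusted p under 0.05, near the 5.12% of all genes.

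In the antioxidant and NRF2 target list, 27 of 36 tested members were positive, 9 (25%) of them at an unadjusted p under 0.05, against 5.12% of all genes, with 0 negative, and the median was 0.11. Gclm, a subunit of the enzyme that limits glutathione synthesis, was at 23.4, 24.5 and 20.5 CPM and then 28.1, 22.5 and 19.1 CPM on the control diet, and at 22.6, 19.6 and 18.7 and then 30.8, 31.5 and 45.2 CPM on the Western diet. All Western diet postpartum libraries lay above the other 9, and the interaction was 0.80 (0.32 to 1.27, edgeR adjusted p = 0.377). Txnrd1, thioredoxin reductase, had 0.36 (0.11 to 0.61) and Hmox1, the haem-degrading enzyme, 0.57 (0.074 to 1.06). All 3 rose with pregnancy on the Western diet, with edgeR adjusted p = 0.0359, 0.0419 and 0.0447, and none passed on the control diet.

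The unfolded protein and integrated stress response list divided. Of 43 members, 4 (9.3%) were positive and 8 (18.6%) negative at an unadjusted p under 0.05, against 5.12% and 3.86% of all genes. The median was -0.076, and -0.12 to -0.018 leaving out 1 library, nearest to 0 without Western diet postpartum replicate 3. Pdia6, a disulfide isomerase that folds secreted proteins, had -0.64 (-0.99 to -0.28). Ppp1r15a, the phosphatase subunit GADD34 that ends the integrated stress response, had 0.71 (0.29 to 1.12). Mthfd2, a mitochondrial folate enzyme induced by that response, rose with pregnancy on the Western diet (log2 fold change 1.08, edgeR adjusted p = 0.0271), with 0.77 on the control diet and an interaction of 0.31 (-0.29 to 0.91). Without Western diet postpartum replicate 2 the Mthfd2 interaction was 0.10. In the ribosome biogenesis list, 29 of 39 were positive, 6 (15.4%) at an unadjusted p under 0.05, against 5.12% of all genes. Uck2, which makes pyrimidine nucleotides by salvage, had 0.77 (0.27 to 1.26) and Rrp12, a ribosome assembly factor, 0.66 (0.21 to 1.11). The 53 cytosolic ribosomal protein genes had a median of -0.009, with 0 in either direction at an unadjusted p under 0.05.

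**Figure D4:**
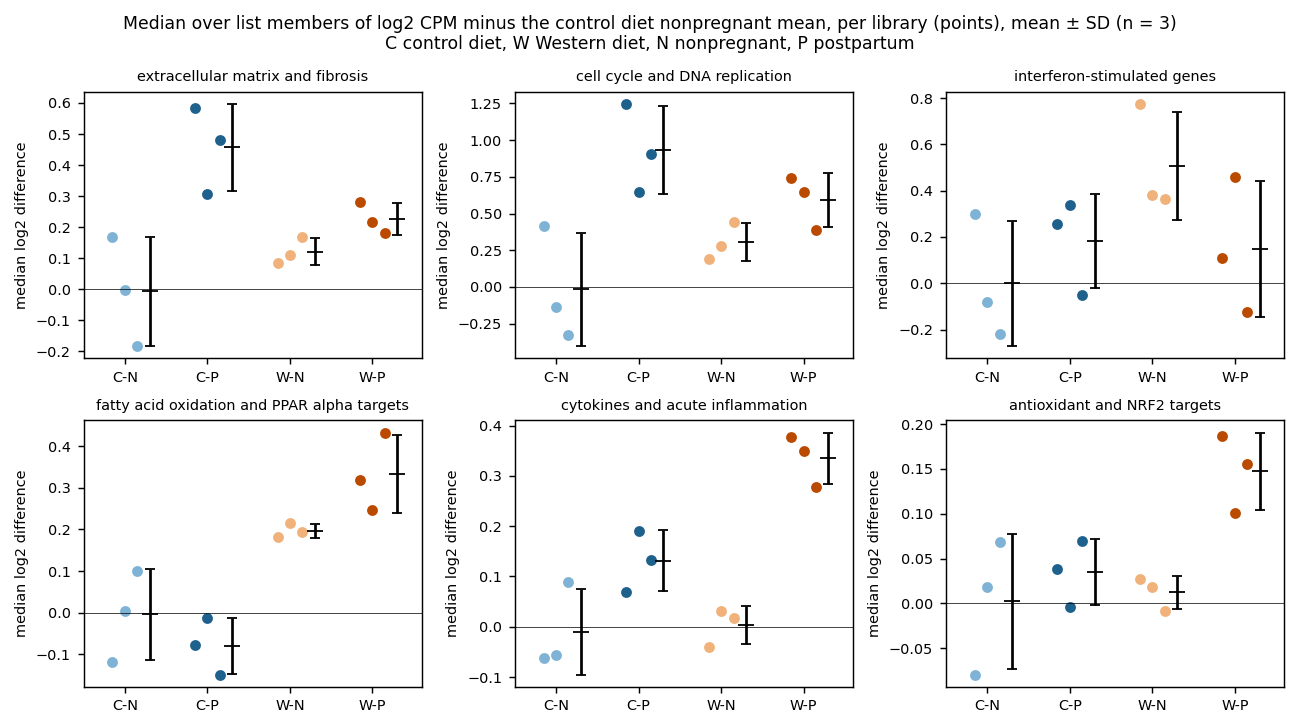
Median over the members of each of 6 lists of the log2 level relative to the control diet nonpregnant mean (vertical axes), for each library (points) in the 4 groups, with mean and SD (n = 3). The matrix score is highest in the control diet postpartum libraries (0.58, 0.31 and 0.48), and the fatty acid score in the Western diet postpartum libraries (0.32, 0.25 and 0.43).

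The contractile and stress genes of the cardiomyocyte had small or poorly resolved interactions. Myh6, the fast adult myosin heavy chain, was at 33704, 36450.5 and 36684 CPM and then 33648, 34840.4 and 31345 CPM on the control diet, and at 29098, 31453 and 31062 and then 32132, 32983 and 33737 CPM on the Western diet. Its interaction was 0.21 (0.010 to 0.41). Myh7, the slow isoform that marks pathological growth, fell with pregnancy on the control diet (log2 fold change -0.33, edgeR adjusted p = 0.0436), with -0.14 on the Western diet (adjusted p = 0.296) and an interaction of 0.19 (0.0026 to 0.37, adjusted p = 0.546). The natriuretic peptide genes, released by stretched muscle, were wide. Nppb was at 147, 101 and 72 CPM and then 166, 288 and 297 CPM on the control diet, and at 85, 67.6 and 128 and then 621, 129.7 and 405 CPM on the Western diet. Its postpartum libraries were above the nonpregnant ones on both diets, and the interaction was 0.82 (-0.48 to 2.12). It ran from 0.29 to 1.22 leaving out 1 library, lowest without Western diet postpartum replicate 1, and was 0.51 without control diet nonpregnant replicate 1. Nppa had 0.12 (-0.48 to 0.72), and its sign turned when control diet nonpregnant replicate 1 or the second library of either Western diet group was dropped. Acta1, skeletal alpha actin, had 0.74 (-0.46 to 1.93), and Ankrd1, a titin-binding stress protein, 0.49 (-0.43 to 1.41). The Acta1 value ran from 0.42 to 1.42 leaving out 1 library, lowest without control diet nonpregnant replicate 2 and highest without Western diet nonpregnant replicate 3. The Ankrd1 value was -0.046 without control diet nonpregnant replicate 1.

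In the adult sarcomere and calcium handling list, 26 of 37 members were positive, 7 (18.9%) of them at an unadjusted p under 0.05, against 5.12% of all genes. The median was 0.063, and 0.013 to 0.12 leaving out 1 library, lowest without control diet postpartum replicate 3. Ryr2, the calcium release channel, had 0.41 (0.11 to 0.70). Des, the intermediate filament desmin, rose with pregnancy on the Western diet (log2 fold change 0.39, edgeR adjusted p = 0.0278), with 0.014 on the control diet and an interaction of 0.38 (0.17 to 0.58, adjusted p = 0.357). Its Western diet postpartum libraries, at 2498, 2297 and 2616 CPM, were above the other 9. Tcap, the telethonin that caps titin, and Fgf16, a growth factor of cardiomyocytes, fell with pregnancy on the Western diet (log2 fold changes -0.94 and -0.82, edgeR adjusted p = 0.0249 and 0.0249), and their interactions were -0.36 (-0.80 to 0.075) and -0.45 (-0.79 to -0.11). Both interactions were smaller in size than the falls on the Western diet, so the control diet estimates of Tcap and Fgf16 were also negative. The Tcap interaction was -0.21 without control diet nonpregnant replicate 1. Popdc3, a membrane protein that binds cyclic AMP, had 0.54 (0.23 to 0.84), and Kcne1, a potassium channel subunit, -1.36 (-2.30 to -0.43). Lgals4, the lectin galectin-4, fell with pregnancy on the control diet (log2 fold change -1.03, edgeR adjusted p = 0.0317), with -0.26 on the Western diet and an interaction of 0.77 (0.28 to 1.26). Of the 13 mitochondrially encoded genes, 12 were positive, and mt-Nd5, a complex I subunit, had 0.32 (0.14 to 0.50). Of 44 nuclear-encoded respiratory chain genes, 37 were positive, with a median of 0.050 and 0 at an unadjusted p under 0.05.

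Clock genes were lower postpartum on both diets in the median, at -0.31 on the control diet and -0.12 on the Western diet, and their interactions had both signs, 13 of 22 positive. The output genes Dbp and Ciart fell with pregnancy on the Western diet (log2 fold changes -1.48 and -1.91, edgeR adjusted p = 0.0249 and 0.0249). On the control diet they had -0.83 and -1.11, and their interactions were -0.65 (-1.31 to 0.0092) and -0.80 (-1.63 to 0.023). The repressor genes Cry1, Cry2 and Per2 had positive interactions of 0.67 (0.24 to 1.11), 0.52 (0.18 to 0.86) and 0.64 (0.079 to 1.20). Cry2 was at 51, 56 and 49.8 CPM and then 31.3, 44 and 33 CPM on the control diet, and at 42.7, 42 and 43.3 and then 41.4, 38 and 47.1 CPM on the Western diet. The labels used here give no time of day for the collection of the hearts.

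Fat markers had interactions that rested on 1 library. The 11 tested white adipocyte markers had a median interaction of -0.76, and -0.078 without control diet postpartum replicate 3. Adipoq, Cfd, the fat-derived complement factor D, and Car3, a carbonic anhydrase of fat and muscle, had interactions of -5.70, -5.47 and -4.35. Without that library they were -1.69, -0.91 and -1.13. The 4 lists described most fully kept the sign of their median without it, at -0.30 for matrix, -0.71 for cell cycle, -0.59 for interferon-stimulated and 0.17 for fatty acid genes. Without all 3 libraries that stand apart the medians were -0.38, -1.05, -0.98 and 0.25 in the same order.

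The interaction can also be read from the pregnancy effects of the 2 diets, which share no library. On the control diet 37 genes (0.239%) passed the pregnancy test and on the Western diet 91 (0.588%), with 2 genes in both, by edgeR at an adjusted p under 0.05. Of the 37 genes, 35 (94.59%) had the same direction on the Western diet, against 57.62% of all genes, and the median size went from 0.55 where they were called to 0.21 on the other diet. The first of these sizes was used in the selection, the second was not. Of the 91 genes, 73 (80.22%) had the same direction on the control diet, and the median size went from 0.55 to 0.13. Rnf166, a ubiquitin ligase, passed on both diets with log2 fold changes of -0.40 and -0.40 (edgeR adjusted p = 0.0455 and 0.0324), and the interval of its interaction was -0.22 to 0.22. It was at 42.2, 48.2 and 50.8 CPM and then 34.7, 38.6 and 34 CPM on the control diet, and at 45.4, 47.9 and 47.8 and then 35.4, 36.6 and 35.3 CPM on the Western diet. Read by diet, 9 genes (0.0582%) passed in nonpregnant and 136 (0.879%) in postpartum hearts, with 7 in both. Of the 136, 120 (88.24%) had the same direction in nonpregnant hearts, against 53.73% of all genes, with a median size of 0.61 where called and 0.21 in the other state.

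**Figure D5:**
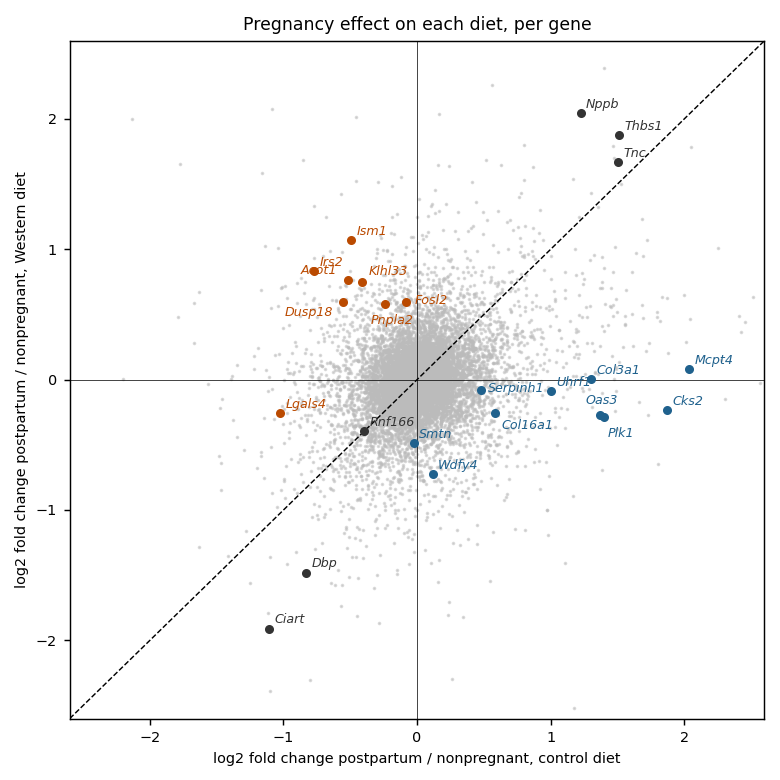
Log2 fold change of postpartum over nonpregnant hearts on the control diet (horizontal axis) and the Western diet (vertical axis). Grey points are the tested genes that have a symbol. Named genes had a positive (orange) or negative (blue) interaction at an unadjusted p under 0.05, or a larger p (dark). Points on the dashed line have equal effects, as Rnf166 nearly does, at -0.40 and -0.40, and axes end at 2.6, beyond which a few genes are not drawn.

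Across all 15476 genes, the pregnancy effects of the 2 diets had a Pearson correlation of 0.146 and a Spearman correlation of 0.203. The diet effects of the 2 pregnancy states had 0.0548 and 0.112. These are descriptions across genes, which are not independent replicates. Of the sum of squares of log2 CPM per gene, the interaction took 10.2% in the mean over genes, beside 15.0% for pregnancy, 13.1% for diet and 61.8% for the spread within groups. A single degree of freedom of the 11 amounts to 9.09%. Leaving out 1 library at a time, where a single degree of freedom amounts to 10.0%, placed the share of the interaction between 9.75% and 12.9%.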

How the data were processed

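RNA was sequenced from whole hearts in 12 libraries, grouped by diet and pregnancy state from the sample titles. Per the labels' protocols, an RNeasy kit yielded the RNA and NEBNext Ultra RNA reagents the libraries. Per the submitters' processing notes, the tools were STAR 2.5.2b, FastQC and Subread 1.5.2 (featureCounts), and the build GRCm38 (mm10). The deposited values are raw counts per gene as the authors left them, with no normalization. Of strand setting, read length and annotation release, nothing is given in the sources used here, and overlapping genes and close copies may share counts. The series states that the raw reads were lost.

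Counts were joined by gene identifier (48970 of 49315 had a symbol), filtered per group by filterByExpr of edgeR (count of at least 10, total of at least 15) and scaled by TMM. One edgeR 4.0.16 quasi-likelihood model in R 4.3.3, with a mean per group over all 12 libraries (common biological coefficient of variation 9.62%), gave each contrast, with Benjamini-Hochberg adjustment over all 15476 genes at a threshold of 0.05. Tests are two-sided. Standard errors are the log2 value over the square root of F, and intervals are 95%, given in parentheses after a log2 value where not named. CPM uses the TMM-scaled library sizes. The procedure was tested on simulated data with set interactions. Reads carry no molecular identifiers.

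Members and lists were chosen with earlier results of these data known. Named genes are the 12 positive and 12 negative genes with the smallest p (with a symbol that is no clone or predicted name, and 1 CPM or more in the highest group). To these were added up to 3 members per list with the smallest p, 29 followed genes, and the 5 genes with the smallest p of each pregnancy and diet effect, from which those that bear on a group described are printed, and 3 of these genes are not reported here. Col6a2 and Col6a3 and the gene without a symbol were added after their values were seen. Of 41 lists, 39 had at least 5 tested members, and lists were described by counts and medians with no test. Alternatives were DESeq2 1.42.0, limma-voom (limma 3.58.1), DESeq2 size factors, edgeR's robust option, no filter, a filter of 1 CPM in 3 libraries, library sizes without mitochondrial genes, a threshold of 0.10, a linear scale, and each library left out. Omitting 2 or all 3 of the libraries that stand apart was added after seeing the data. Each fit with libraries left out applied the low-count filter again, so the genes tested and the list members could differ from those with all libraries.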

Additional observations from a re-analysis of the deposited data

How the results depend on the processing

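No paired analysis was possible because the labels number animals singly and share no replicate number between groups. The count of genes called, 0 with all libraries, was also 0 with DESeq2 size factors, the filter of 1 CPM, library sizes without mitochondrial genes and limma-voom. It was 1 with edgeR's robust option, 1 at a threshold of 0.10, 30 with DESeq2 and 506 with no filter, where the prior degrees of freedom became infinite, against 5.74 with the filter, and 23 of the 506 genes were outside the filter. Leaving out 1 library gave 0 to 53. With both control diet postpartum replicate 3 and replicate 1 of the control diet nonpregnant group dropped there was 1, and without these and Western diet postpartum replicate 2 there were 170, 111 positive and 59 negative.

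Negative members at an unadjusted p under 0.05 numbered, leaving out 1 library, 16 to 25 of the matrix list, 5 to 28 of the interferon list and 6 to 28 of the cell cycle list, and positive fatty acid members 6 to 22. With no filter there were 32 interferon, 25 cell cycle and 21 fatty acid members. Without the pair of libraries named above there were 28, 28 and 15, and without all 3 there were 37, 32 and 29. The share of genes called in postpartum hearts with the same diet direction in nonpregnant hearts was 80.36% for genes chosen by an unadjusted p under 0.001. The share of the interaction in the variation was 9.75% to 12.9% leaving out 1 library.

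Of 91 named genes, 6 changed sign under some alternative, all with intervals that include 0. Without all 3 libraries Ucp3 was at -0.076, Angptl4 at -0.13, Nppa at -0.082 and Rnf166 at 0.022. Without the pair, Ankrd1 was at -0.089 and Rnf166 at 0.029. On the linear scale Nppa was at -4.43 and Rnf166 at 0.024 CPM. Leaving out 1 library, Ucp3 ran from 0.048 to 1.27, Angptl4 from 0.50 to 1.71, Ankrd1 ran from -0.046 to 0.74, Tnc from -0.044 to 0.47 (0.62 without the pair), Nppa from -0.068 to 0.45 and Rnf166 from -0.059 to 0.064. The causes were not tested. With 3 libraries per group, an interaction of the median size, 0.146, was below its median standard error.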

Other observations

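In glucose use and glycolysis, 31 of 43 genes were positive, 3 (6.98%) positive and 1 (2.33%) negative at an unadjusted p under 0.05, near the 5.12% and 3.86% of all genes. The median was 0.084, and 0.020 to 0.14 leaving out 1 library. Immediate early and AP-1 factors had 21 of 31 positive and 3 (9.68%) positive at an unadjusted p under 0.05, against 5.12% of all genes. Their median was 0.14 (0.057 to 0.25 leaving out 1 library). Receptors and targets of pregnancy and stress hormones had 23 of 33 positive, 5 (15.2%) at an unadjusted p under 0.05, against 5.12% of all genes. Their median was 0.10 (0.039 to 0.18 likewise). Cardiac ion channels had a median of 0.069, vessel signalling genes 0.0047, heat shock genes -0.068 and sterol and fatty acid synthesis genes -0.084. The median of the sterol and fatty acid synthesis list was 0.014 without control diet postpartum replicate 3, the library with far higher fat tissue transcripts. In the fetal and hypertrophic list, 20 of 30 were positive. At an unadjusted p under 0.05, 4 (13.3%) were positive and 2 (6.67%) negative, against 5.12% and 3.86% of all genes.

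Among the cell type lists, the 8 tested red cell markers were all positive with 0 at an unadjusted p under 0.05, while their median ran from -0.28 to 0.31 leaving out 1 library. The 15 smooth muscle and pericyte markers had 3 (20%) negative at an unadjusted p under 0.05, against 3.86% of all genes, Smtn among the smallest p. Thymus and lung epithelium markers summed to at most 1.5 CPM in any library, with Rag2, Sftpa1 and Sftpd at 0 in all.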
